A study of Populus tremula x Populus alba with 6 samples.

Results

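Gypsy13-PTR_I-int and Gypsy21-PTR_I-int are the internal parts of 2 families of Gypsy retrotransposons of poplar, and their loci were followed through 6 mobilome-seq libraries. A locus was taken as a member where the first of its transposable element names was one of these 2 names. The rule gave 29 of the 436 listed loci, 18 for Gypsy13 and 11 for Gypsy21, and 50 of the 665 entries that these loci made over the 6 lists. The members were chosen by name among loci that the measured signals had put on a list, so a locus had to be listed by at least 1 library. The numbers of listed loci below are therefore a description of the chosen loci.

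Gypsy elements are long terminal repeat (LTR) retrotransposons, which copy themselves through an RNA that is reverse transcribed into DNA. Their internal part lies between the 2 LTRs and codes for the capsid protein and for the enzymes of reverse transcription and integration. A DNA copy that does not integrate can be closed into a circle, and mobilome-seq enriches such extrachromosomal circles by amplifying them before sequencing. Ogre elements, whose names recur below, are a lineage of very large Gypsy retrotransposons. DDM1 is a chromatin remodeller known to help keep transposable elements methylated and silent in plants.

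Shoot apical meristems of a hybrid poplar (Populus tremula x Populus alba, clone 717-1B4) were the source of all libraries. They represent RNAi ddm1 line 15, RNAi ddm1 line 23 and wild type (WT), each taken after drought and rewatering (called drought below) and under control watering. The watering of a library rests on its stress label alone. The titles carry a letter for each watering whose meaning is not spelled out, and no value in the tables checks it. Were the 2 labels exchanged in each genotype, every difference between drought and control below would turn round. Each of the 6 groups has 1 library, so no group has a spread of its own, and each RNAi line is a single transgenic line in 1 clone. This DNA assay does not measure how far ddm1 was reduced, and the sources used here do not state whether a library pools several plants.

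Each list gives for a locus a depth of coverage value and a split-read value, both whole numbers that were not scaled to library size. Split reads are reads aligned in separate pieces, as a read across the closure of a circle would be. A locus missing from a list is called unlisted, since the sources used here do not state the threshold for listing. The drought lists held 79 loci (line 15), 44 (line 23) and 115 (WT), and the control lists 169, 109 and 149 in the same order. The summed depth value of a whole list ranged over 22388 to 92011, and this sum is no sequencing depth because only selected loci are listed. The sources used here do not state how reads that match several copies of a family were placed, so the values of a single copy may hold reads of its near-identical relatives. Coordinates are those of the deposited tables, counted from 1, and the positions of the loci relative to genes were not analysed here.

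**Figure D1:**
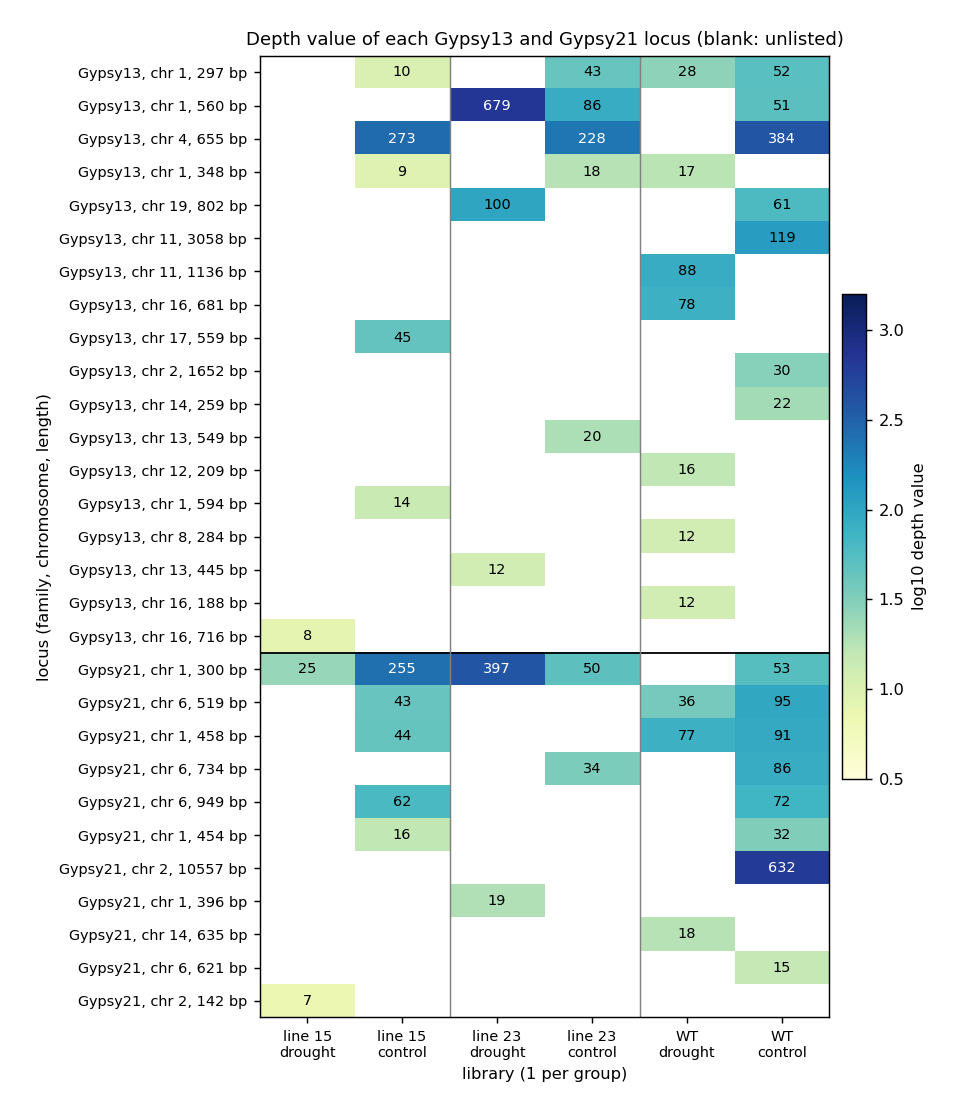
Depth value of the 18 Gypsy13 loci (above the line) and the 11 Gypsy21 loci (below it) in each of the 6 libraries. Rows are loci named by chromosome and length, colour is log10 of the depth value, the printed number is the value itself and a blank cell means unlisted. The highest values are 679 for Gypsy13 and 632 for Gypsy21, and most rows are filled in 1 library.

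Gypsy13 loci were spread over 11 chromosomes and Gypsy21 loci over 4. Gypsy13 ranked 3 and Gypsy21 ranked 6 by number of entries among 101 first names, and both were among the 13 names listed in every library. Like most listed loci, members were short: 15 of 18 Gypsy13 loci and 10 of 11 Gypsy21 loci (86.2% together) were under 1000 bp, against 91.3% of all 436 loci. Gypsy13 loci were 188 to 3058 bp long with a median of 559.5 bp, and Gypsy21 loci 142 to 10557 bp with a median of 519 bp. All other loci together had a median of 246 bp, while other Gypsy internal parts had 371 bp and Ogre internal parts 512 bp.

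Depth values of the members were spread around the middle of the lists and stayed far below the leading loci, which reached 51684. Gypsy13 entries ranged over 8 to 679 with a median of 36.5, while Gypsy21 entries over 7 to 632 with a median of 47.0. The median of all 665 entries was 30.0. Per kb of locus, the median depth value was 77.0 for Gypsy13, 79.4 for Gypsy21 and 90.4 for all entries. Of the 50 member entries, 4 (8%) stood among the 10 highest depth values of their library, near the 9.02% of all 665 entries, and the best place was rank 6.

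**Figure D2:**
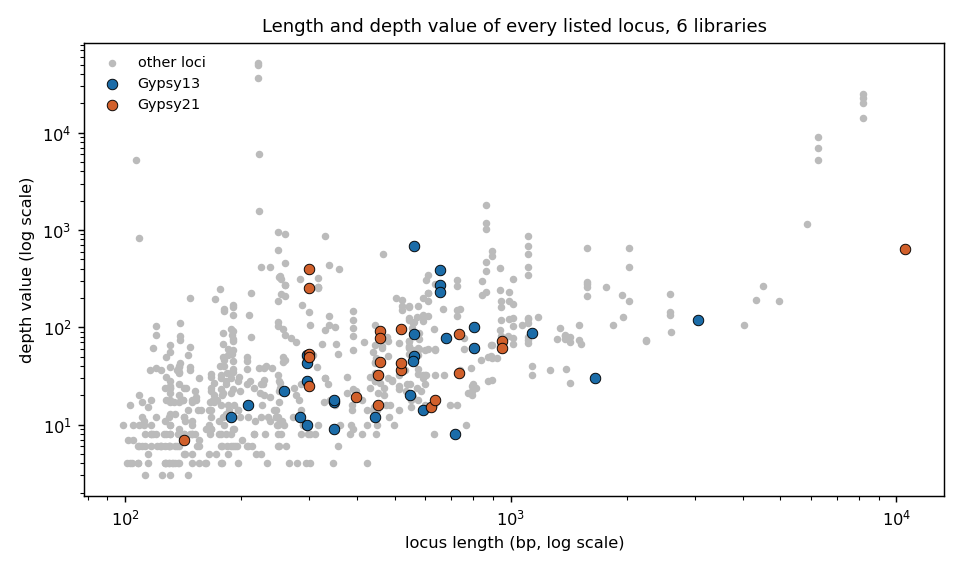
Length (bp, log scale) and depth value (log scale) of every listed locus in the 6 libraries. Each point is an entry, blue for Gypsy13, orange for Gypsy21 and grey for all other loci, and the point farthest to the right is the Gypsy21 locus of 10557 bp. Spearman's rho of length and depth value was 0.55 over the 28 Gypsy13 entries and 0.19 over the 22 Gypsy21 entries, against 0.59 over all entries, where entries of a locus share its length.

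Recurrence between libraries was counted for each locus. A single library listed 13 of 18 Gypsy13 loci and 5 of 11 Gypsy21 loci, together 18 of 29 (62.1%), where 73.4% of all 436 loci were in 1 library. Listing in at least 3 libraries was found for 4 Gypsy13 loci and 3 Gypsy21 loci (24.1% of the 29), against 14.9% of all loci. Ogre internal parts had the same 24.1% in at least 3 libraries, with 69% in 1 library. Other Gypsy internal parts had 21.9% and 68.8%. No member was in all 6 libraries, and the Gypsy21 locus on chromosome 1 at 46571040 came closest with 5.

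The first comparison asked how drought and rewatering bore on the listing of the 2 families. In line 15, Gypsy13 held 1 of 79 loci after drought (1.27%, exact Clopper-Pearson 95% interval 0.0320 to 6.85) and 5 of 169 under control watering (2.96%, 0.967 to 6.77). In line 23 it held 3 of 44 after drought (6.82%, 1.43 to 18.7) and 5 of 109 in control (4.59%, 1.51 to 10.4). In WT the family had 7 loci in each list, 6.09% after drought (2.48 to 12.1) and 4.70% in control (1.91 to 9.44). The Gypsy13 share was thus lower after drought in line 15 and higher in line 23 and WT, with overlapping intervals in each genotype.

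Gypsy21 held 2 loci after drought (2.53%, 0.308 to 8.85) and 5 in control (2.96%, 0.967 to 6.77) in line 15. In line 23 there were 2 in each list, 4.55% after drought (0.555 to 15.5) and 1.83% in control (0.223 to 6.47). WT had 3 after drought (2.61%, 0.541 to 7.43) and 8 in control (5.37%, 2.35 to 10.3). Here the share was lower after drought in line 15 and WT and higher in line 23, again with overlapping intervals. Amplification copies circles before they are read, and neighbouring loci may be pieces of 1 element. The intervals treat loci as independent, so they describe counting error at most and no spread between libraries.

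**Figure D3:**
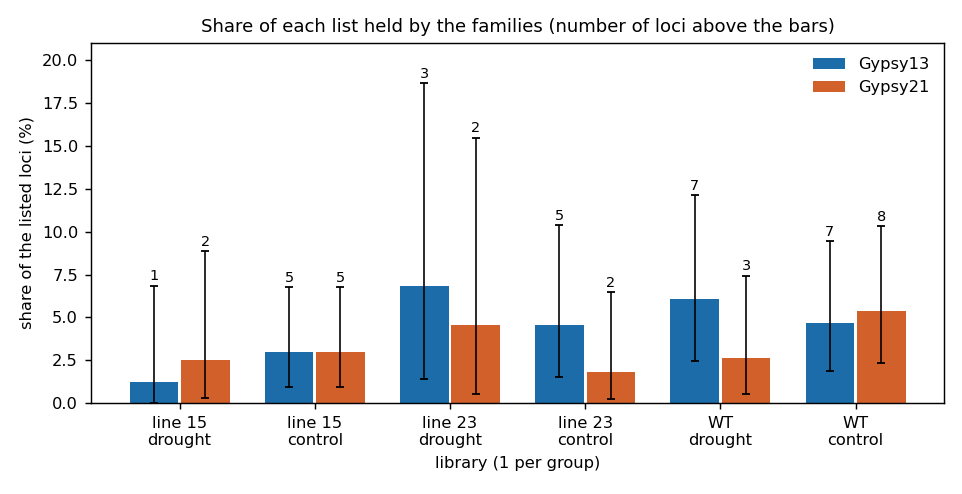
Share of the listed loci held by Gypsy13 (blue) and Gypsy21 (orange) in each library. Bars are percentages, error bars are exact Clopper-Pearson 95% intervals and the number above a bar is the number of loci. The shares lie between 1.27% and 6.82%, and the intervals of drought and control overlap in each genotype for both families.

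Over the 3 genotypes, drought minus control averaged 0.642 percentage points for Gypsy13 (SD 2.07, n = 3, two-sided exact sign-flip p = 0.75) and -0.159 for Gypsy21 (SD 2.75, n = 3, exact sign-flip p = 0.75). With 3 pairs the smallest possible p is 0.25, so no difference of any size could pass 0.05. Both means changed sign when a locus was counted under any of its names, to -0.166 for Gypsy13 and 0.744 for Gypsy21. Both also changed sign when a genotype was left out, to -0.152 for Gypsy13 without line 23 and to 1.14 for Gypsy21 without WT.

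Within genotypes the members mostly appeared under 1 watering or the other, as listed loci did in general. In line 15, 2 of 12 listed members were listed after drought only and 9 under control only, where 22.5% and 63.8% of all 218 loci of that genotype were. In line 23 these numbers were 3 and 5 of 10 members, where 21% and 68.1% of all 138 loci were. In WT they were 7 and 12 of 22 members, where 34.1% and 49.1% of all 226 loci were. Over all genotypes, 10 of the 29 loci (34.5%) were in drought libraries only, 12 (41.4%) in control libraries only and 7 (24.1%) in both, against 24.5%, 56.7% and 18.8% of all loci. Of the 10 in drought libraries only, 7 were Gypsy13 loci, a family that makes up 18 of the 29 members. Of those 7, 5 were in WT drought, the longest drought list (115 loci, against 79 in line 15 and 44 in line 23).

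Depth could be compared between waterings at 6 places, where a member was listed in both libraries of a genotype. In line 23, the Gypsy13 locus on chromosome 1 (46570471 to 46571030, 560 bp) had a depth value of 679 after drought and 86 in control, a ratio of 7.90. Beside it, the Gypsy21 locus at 46571040 to 46571339 (300 bp) had 397 after drought and 50 in control, a ratio of 7.94. These were the only 2 of the 15 loci shared by the line 23 libraries whose value was at least 2-fold higher after drought (13.3%), the median log2 ratio of the 15 was -0.55, and 33.3% were at least 2-fold lower. They ranked 6 and 7 of 44 after drought, and 23 and 41 of 109 in control.

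In line 15 the same Gypsy21 locus went the other way, with 25 after drought and 255 in control, a log2 ratio of -3.35. This was the lowest ratio among the 30 loci shared by the line 15 libraries, 7 of which (23.3%) were at least 2-fold lower and 1 (3.33%) at least 2-fold higher after drought. Its rank was 49 of 79 after drought and 14 of 169 in control. The same locus thus had the lowest drought over control ratio of line 15 and the highest of line 23. With 1 library per group neither ratio has a replicate check.

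WT gave 3 shared members, all with lower depth values after drought. The Gypsy21 locus on chromosome 6 (12230391 to 12230909, 519 bp) had 36 after drought and 95 in control, a log2 ratio of -1.40 and the only 1 of the 3 that was at least 2-fold lower, as were 10.5% of the 38 shared loci, with 15.8% at least 2-fold higher. The Gypsy13 locus on chromosome 1 at 17855805 to 17856101 (297 bp) had 28 after drought and 52 in control. The Gypsy21 locus on chromosome 1 at 41621905 to 41622362 (458 bp) had 77 after drought and 91 in control. Division by the summed depth value of the lists turned all 3 to higher after drought, with log2 ratios of 0.19, 0.70 and 1.35 in that order. In WT control, however, 49200 of the sum of 92011 came from a Gypsy23-PTR_I-int locus of 221 bp that was unlisted in WT drought. With the median of all shared loci subtracted instead, the 3 log2 ratios were -1.02, -0.51 and 0.14. The line 15 and line 23 ratios kept their direction under both scalings.

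**Figure D4:**
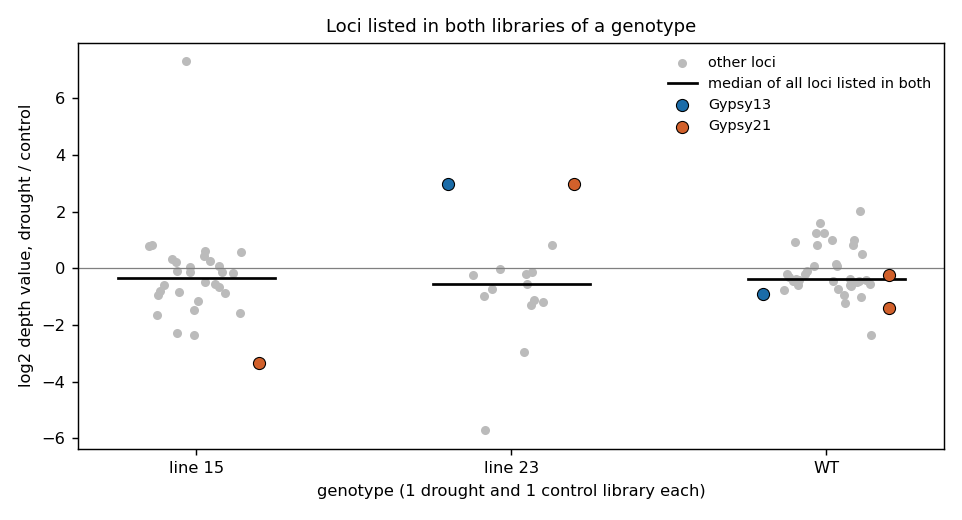
Drought over control ratio of the depth values (log2) at each locus that both libraries of a genotype list. Blue and orange points are Gypsy13 and Gypsy21 loci, grey points all other loci and black lines the median of all of them (-0.32 in line 15, -0.55 in line 23 and -0.38 in WT). The Gypsy21 point of line 15 is the lowest of that genotype at -3.35, and the 2 member points of line 23 lie above all others at 2.98 and 2.99.

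The 2 chromosome 1 loci that were high in line 23 drought are separated by 9 bp, so a Gypsy13 fragment and a Gypsy21 fragment lie side by side in 1 stretch. A further Gypsy21 locus begins 1993 bp after the start of the first Gypsy21 locus (46573033 to 46573428, 396 bp). It was listed in line 23 drought alone, with a depth value of 19. Per kb of locus, the Gypsy13 and Gypsy21 neighbours had depth values of 1212.5 and 1323 in line 23 drought, against 154 and 167 in line 23 control. In WT control they had 91.1 and 177. Within line 23 the pair thus had similar levels per length under both waterings. As deposited, the Gypsy13 value was the higher under both, 679 against 397 after drought and 86 against 50 in control.

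In line 15 the Gypsy21 locus had 83.3 per kb after drought, against 850 in control. Its Gypsy13 neighbour was unlisted in both line 15 libraries, so whether the pair went together there cannot be told. WT drought listed neither. The split-read values of the pair parted in line 23. The Gypsy13 locus had 347 in line 23 drought, against 49 in line 23 control, whereas the Gypsy21 locus had 12 in line 23 drought and 27 in line 23 control. Elsewhere the Gypsy21 locus had split-read values of 3 (line 15 drought), 63 (line 15 control) and 11 (WT control), where its Gypsy13 neighbour had 22.

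**Figure D5:**
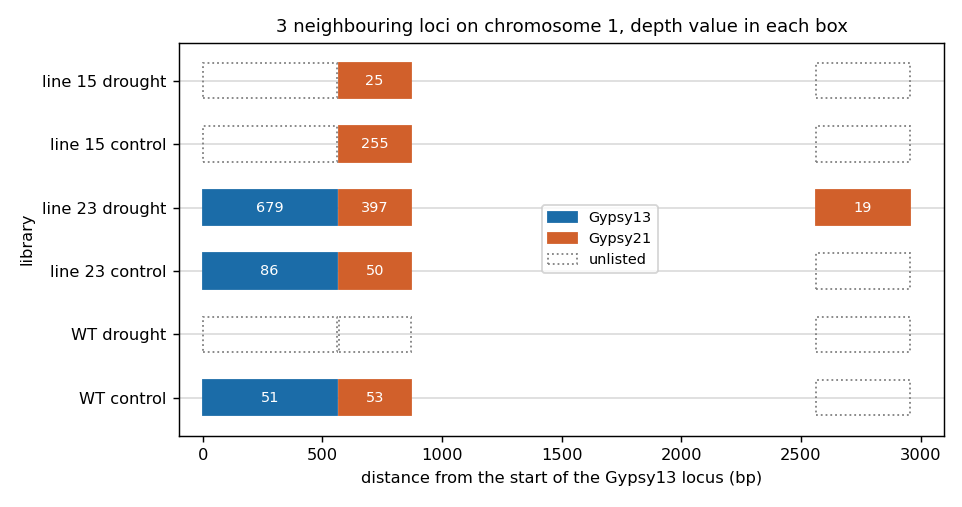
The 3 neighbouring loci on chromosome 1 drawn to scale, as distance (bp) from the start of the Gypsy13 locus, with 1 line per library. Filled boxes are listed loci with their depth value, blue for Gypsy13 and orange for Gypsy21, and dotted boxes are unlisted loci. Line 23 drought is the only library with all 3 boxes filled (679, 397 and 19), and WT drought has none.

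A further 3 Gypsy13 loci were listed in 3 or more libraries. The locus on chromosome 4 (5437039 to 5437693, 655 bp) was listed in the control libraries alone, with depth values of 273 in line 15, 228 in line 23 and 384 in WT. Of all 436 loci, 5 (1.15%) had this pattern of all 3 controls and no drought list. It held rank 11 in line 15 control, rank 9 in line 23 control and rank 16 in WT control, and its split-read values were 52, 11 and 24. The 297 bp locus at 17855805, with the WT values given above, had 10 in line 15 control and 43 in line 23 control. The locus on chromosome 1 at 29032213 to 29032560 (348 bp) had 9 in line 15 control, 18 in line 23 control and 17 in WT drought. Its split-read values were 3, 4 and 3, near the lowest split-read value of 3 in any list.

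The other 2 Gypsy21 loci listed in 3 or more libraries were in WT and line 15 lists and in neither line 23 library. The chromosome 1 locus at 41621905 had 44 in line 15 control, and the chromosome 6 locus at 12230391 had 43 there, both below the WT control values of 91 and 95. At the chromosome 6 locus the split-read value was 67 in line 15 control, 3 in WT drought and 52 in WT control. Split reads covered 4.43% of that locus in WT drought and 76.3% in WT control, while the depth signal covered 88.4% and 98.8%.

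The longest members were each listed once, in WT control. The longest Gypsy21 locus, on chromosome 2 (17639269 to 17649825, 10557 bp), was also the longest of all 436 loci. It had a depth value of 632 (rank 7 of 149), a split-read value of 260, and a depth value per kb of 59.9, which ranked 88. Its last name was Gypsy-73_PTr-LTR, so this stretch holds an LTR name beside 2 Gypsy21 internal names. The longest Gypsy13 locus, on chromosome 11 (1417319 to 1420376, 3058 bp), had a depth value of 119 and a split-read value of 90. It lies 391 bp from another Gypsy13 locus (1415792 to 1416927), which had 88 and was listed in WT drought alone. The shortest members were a Gypsy13 locus of 188 bp on chromosome 16 (8973595 to 8973782), with 12 in WT drought, and a Gypsy21 locus of 142 bp on chromosome 2 (8307435 to 8307576), with 7 in line 15 drought.

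Many members also carried an Ogre name. This held for 10 of 18 Gypsy13 loci and 7 of 11 Gypsy21 loci, together 58.6% of members. Ogre names occurred at 13.8% of all other loci, Ogre loci included, and at 3.12% of the 32 other Gypsy internal-part loci. The sets also differ in how many loci carry several names. These were 28 of the 29 members, 227 of the 407 other loci and 18 of the 32 other Gypsy internal-part loci. A locus with a single name that is no Ogre name cannot count here. The Ogre families differed between the 2: Ogre-PT3_I-int stood at 7 Gypsy13 loci and 0 Gypsy21 loci, Ogre-PT1_I-int at 4 and 6, and Ogre-PT2_I-int at 0 and 2. The names of both families stood together at 3 Gypsy13 loci and at 0 Gypsy21 loci. A further 9 loci carried one of the names in a later place and are no members, and 8 of these were named first as Ogre. These counts describe the annotation names and were not tested.

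Listed neighbours were counted for each member. Another listed locus lay within 10000 bp of 3 of 18 Gypsy13 loci and 6 of 11 Gypsy21 loci (31.0% of the 29), compared with 9.09% of all other loci, 27.6% of Ogre internal parts and 12.5% of other Gypsy internal parts. On chromosome 1, the Gypsy21 loci at 17787446 and 41621905 each have an Ogre-PT2_I-int locus, listed in all 6 libraries, 2322 bp and 2124 bp from start to start. The first of these Gypsy21 loci (17787446 to 17787899, 454 bp) had 16 in line 15 control and 32 in WT control. On chromosome 6, the Gypsy21 locus at 12230391 has a second Gypsy21 locus 191 bp away (12229579 to 12230199), listed in WT control with 15. Neighbours may be pieces of 1 element that the annotation splits, so they are not independent loci.

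The next comparison was of the RNAi lines with WT. Gypsy13 held 1.27% of loci in line 15 and 6.82% in line 23 after drought, against 6.09% in WT, a mean difference of -2.04 percentage points. Under control watering the difference was -0.925, with line 15 at 2.96% and line 23 at 4.59%, only slightly below the 4.70% of WT. For Gypsy21 it was 0.930 after drought, with the lines on either side of WT, and -2.97 under control watering, with both lines below WT (2.96% and 1.83% against 5.37%). Averaged over the waterings, RNAi minus WT was -1.49 for Gypsy13 (two-sided exact permutation p = 0.667) and -1.02 for Gypsy21 (exact permutation p = 0.444). The 9 splits matched by watering allow no p below 0.111, and the Gypsy21 mean was 0.930 without WT control.

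RNAi libraries alone listed 7 of the 29 members (24.1%), WT libraries alone 11 (37.9%) and both kinds 11 (37.9%). Of all 436 loci, 48.2% were in RNAi libraries only, 30.5% in WT libraries only and 21.3% in both. The RNAi side has 4 libraries and the WT side 2. Among Gypsy13 loci the numbers were 5, 8 and 5, and among Gypsy21 loci 2, 3 and 6. Each of the 7 in RNAi libraries only was in 1 library, and so not in both lines, where 73.4% of all 436 loci were in 1 library. The share of all loci in RNAi libraries only that both lines listed is not given here. The depth values of the 7 were 7 to 45.

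The last comparison set the 2 families against each other within each library. The choice by name did not use these measures, but every listed locus has both signals, so the measures may bear on which loci were listed. The median depth value per kb was lower for Gypsy13 than for Gypsy21 in 4 of 6 libraries, with a mean log2 difference of -0.69 (SD 1.17, n = 6, two-sided exact sign-flip p = 0.188, adjusted p = 0.625). In line 15 drought, where 1 Gypsy13 locus met 2 Gypsy21 loci, the medians were 11.2 and 66.3 per kb, and in line 15 control 33.7 and 82.9. In line 23 drought they were 125 (3 loci) and 686 (2 loci, at 1323 and 48.0 per kb), and in line 23 control 145 (5 loci) and 106 (2 loci). The tested difference used medians of log2 values, and was -1.01 in line 23 drought. WT had 76.6 and 69.4 after drought and 84.9 and 96.5 in control.

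Loci of Gypsy13 were longer in 5 of 6 libraries by median, by a mean of 117 bp (SD 235, n = 6, exact sign-flip p = 0.313, adjusted p = 0.625). In WT drought the Gypsy13 median was 297 bp, against 519 bp for Gypsy21. The log2 ratio of split-read to depth value differed by 0.030 (SD 0.99, n = 6, exact sign-flip p = 0.813, adjusted p = 0.813), and the part of a locus covered by split reads by -4.53 percentage points (SD 19.8, n = 6, exact sign-flip p = 0.594, adjusted p = 0.792). None of the 4 measures had a p under 0.05, before or after adjustment. After adjustment, a measure could pass with 6 libraries only if most of the 4 reached the smallest possible p together. The adjusted values therefore decide nothing about a single measure. The p-values were adjusted by the Benjamini-Hochberg method over these 4 measures, 6 libraries allow no unadjusted p below 0.0313, and the libraries share loci.

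Split-read values of the members ranged over 3 to 347 for Gypsy13, with a median of 10, and over 3 to 260 for Gypsy21, with a median of 16.5. The median of all entries was 7. Split-read values above the depth value were found in 2 entries of each family (8% of the 50), where 9.92% of all entries did so. They were the Gypsy13 loci on chromosome 13 at 127885 (split-read value 36, depth value 20, line 23 control) and at 5583629 (18 and 12, line 23 drought), and the Gypsy21 loci at 46573033 (32 and 19, line 23 drought) and 12230391 (67 and 43, line 15 control). They were picked with their values in view.

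The spread of a family's entries over the 6 libraries was compared with that of the 21 other first names with at least 10 entries, by the sum of absolute differences in shares, divided by 2. POPGY1_LTR (0.151), Ogre-PT2_I-int (0.154) and ENSPM1_PT (0.155) were nearest to Gypsy13. L1-1_PTr (0.126), Ogre-PT1_I-int (0.161) and ENSPM1_PT (0.165) were nearest to Gypsy21. Gypsy21 was number 10 of 21 in likeness to Gypsy13, at a distance of 0.218, and the farthest name was at 0.373. These distances rest on few entries, 13 to 28 for the families and their nearest names and 11 for the farthest, and were not tested.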

How the data were processed

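Each deposited table lists the transposable element loci of 1 library, and its sheet is named by the title of its sample. Watering and genotype were taken from the labels. Per the labels' protocols, CTAB was used for DNA extraction, extrachromosomal circles were amplified, and Nextera XT libraries were read on a MiSeq (2 reads of 250 bp). The submitters' processing notes name Bowtie2 without a version. The genome build, the counter and any filter are not stated there.

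Per the file headers, each locus has 2 deposited coverage signals, headed DOC and SR, taken here to mean depth of coverage and split reads. The deposited part of each locus covered is headed as a percent but is a fraction from 0 to 1, given here as a percent. The lowest listed depth and split-read values were 3. The lowest part covered by the depth signal was 80.1%, and the lowest part covered by split reads was 0.277%. The headers do not say if the signals count reads, so no count model was fitted, and levels of different loci were compared per kb.

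Starts were raised by 1. Loci were matched by identical coordinates. The 2 families, the lists and the tests were chosen with earlier results of these data known. Loci given with values were those listed in 3 or more libraries, the 3 of each family with the highest depth value, that with the highest split-read value, and the longest and shortest, with others named where a count or a neighbour called for it. Tests were exact sign-flip and permutation tests over libraries, checked on values with known answers, in Python 3.11.15 with SciPy 1.17.1 and pandas 2.3.3. Alternatives were other names, a depth value of at least 20, depth values not divided by length, merging within 1000 bp, weighting, means, and leaving out each library.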

Additional observations from a re-analysis of the deposited data

Results flagged for a closer look

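The depth value of the Gypsy21 locus on chromosome 1 at 46571040 moved in opposite directions between the RNAi lines, with a log2 drought over control ratio of -3.35 in line 15 and 2.99 in line 23. Its split-read value was lower after drought in both lines, 3 against 63 in line 15 and 12 against 27 in line 23. The difference in depth ratios was not tested, since each line has 1 library per watering.

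The share of listed loci, drought minus control, also differed in direction between genotypes. For Gypsy13 it was -1.69 percentage points in line 15, 2.23 in line 23 and 1.39 in WT. For Gypsy21 it was -0.427 in line 15, 2.71 in line 23 and -2.76 in WT. These differences were not tested either, and they rest on 1 to 8 loci per list.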

How the results depend on the processing

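None of the family differences had an adjusted p under 0.05 in the settings run (lowest 0.125). This outcome was largely fixed in advance. After adjustment, a measure could pass 0.05 with 6 libraries only if most of the 4 measures reached the smallest possible p together. With 5 libraries no measure could pass. The depth difference per kb grew to -1.29 with loci counted under any name (exact sign-flip p = 0.0313 before adjustment, adjusted p = 0.125). It shrank to -0.125 at depth values of at least 20 (n = 5, exact sign-flip p = 0.875). Depth values not divided by length gave -0.632 (n = 6, exact sign-flip p = 0.125). The tests of shares could not pass 0.05 at this number of libraries. Counting a locus under any of its names turned the Gypsy13 minus Gypsy21 difference to -25.3 bp for length and to -0.87 for the log2 split-read over depth value. It also turned the drought minus control share to -0.166 percentage points for Gypsy13 and 0.744 for Gypsy21. Means over loci turned the length difference to -33.9 bp. The drought minus control share of Gypsy13 was -0.451 at depth values of at least 20, where line 15 drought kept no Gypsy13 locus, and -0.0601 weighted by length. That of Gypsy21 was 0.0262 with loci within 1000 bp merged and 0.130 weighted by depth value, and the RNAi minus WT share of Gypsy13 was 0.433 weighted by depth value. The causes were not tested.

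Leaving out each library in turn gave ranges of -0.20 to 0.26 for the log2 split-read over depth difference and -10.9 to 0.738 percentage points for the part covered by split reads. The ranges were -0.152 to 1.81 and -1.59 to 1.14 for the drought minus control shares of Gypsy13 and Gypsy21, and -2.97 to 0.930 for the RNAi minus WT share of Gypsy21. The differences in depth value per kb (-0.97 to -0.32) and in length (41.6 to 185 bp) kept their direction, as did the RNAi minus WT share of Gypsy13 (-2.87 to -0.0969).

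Scalings of the single-locus ratios were chosen after the data were seen. Division by the sum of the list turned the WT log2 ratios to 0.70 at Gypsy13 17855805, 1.35 at Gypsy21 41621905 and 0.19 at Gypsy21 12230391. Subtracting the median of all shared loci turned that of 41621905 to 0.14 and left those of 17855805 and 12230391 lower after drought, at -0.51 and -1.02. No paired analysis by replicate number was possible because each group has 1 library. Depth values of 50 or less were found in 28 of the 50 member entries (56%), against 62.1% of all entries. The threshold for listing is not stated, so no level can be given for an unlisted locus.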
